A study of Mus musculus with 6 samples.

Results

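Genes that answer to glucocorticoid hormone or to FOXO transcription factors were followed in sorted LSKs. They were *Nr3c1*, *Tsc22d3*, *Fkbp5*, *Sgk1*, *Zbtb16*, *Txnip*, *Foxo1*, *Foxo3* and *Irs2*, picked by symbol with earlier results of these data known, and made up 9 of the 54532 genes in the deposited table. LSKs are Lin-, Sca1+, Kit+ bone marrow cells, a gate that holds haematopoietic stem cells and multipotent progenitors. Of the 9 genes, 8 were abundant enough to be tested, 2 of these rose in *Myh9*-deficient LSKs (*Tsc22d3* and *Txnip*), 3 fell (*Nr3c1*, *Foxo3* and *Irs2*), and *Fkbp5*, *Sgk1* and *Zbtb16* did not pass the test. *Foxo1* was too low to be tested.

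The study compared LSKs of mice with an induced deletion of *Myh9*, which encodes the heavy chain of non-muscle myosin IIA, with LSKs of littermates, by RNA-seq of 3 LSK sets a group. *Myh9*-deficient mice (cKO_LSK) were Myh9fl/fl;Mx1-cre and control mice (CTRL_LSK) were Myh9fl/fl;no cre, on a C57BL/6 background, so the floxed alleles were shared by both groups. Mice of both groups received poly I:C, an inducer of interferon, at 5 mg/kg, in 2 doses by the sample descriptions and in 3 by the methods, from an age of 5 to 6 weeks, and LSKs were taken on day 4 after the first dose. The Mx1 promoter answers to interferon in many cell types, so the deletion need not be limited to blood cells. How many mice went into an LSK set of 100000 cells was not stated in the sources used here, and the p-values measure the spread between these sets.

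Each library held 17571544 to 19894562 reads on genes. Transcript levels are given in FPKM, the fragments counted on a gene scaled by its length and by the size of the library, and levels of different genes were compared on this scale only. Gene positions are those of GENCODE M21 (GRCm38), which the table shares for every member but *Nr3c1*. Differences are given as log2 fold changes of FPKM + 1, *Myh9*-deficient minus control, with the SE or the 95% interval, and a gene was called changed at an adjusted p under 0.05 (limma, Benjamini-Hochberg over 11552 genes that averaged 1 FPKM or more). The added 1 shrinks the fold change of genes at a few FPKM. *Myh9* itself was at 22.5 ± 0.495 FPKM in control and at 18.7 ± 1.18 FPKM in *Myh9*-deficient LSKs (SD, n = 3), a log2 fold change of -0.26 (adjusted p = 0.00642), or -0.16 with each library's trend with gene length removed (adjusted p = 0.033). Most of the transcript thus remained in the libraries labelled cKO, from LSKs of day 4. By real-time PCR, the study reported an efficient loss of *Myh9* mRNA in bone marrow cells, a wider population than LSKs. The loxP sites flank exon 1 alone, so reads on the other exons, which a gene-level value counts, do not show the deletion directly. All 8 LSK markers examined, with *Kit* and *Ly6a* (Sca1) among them, passed the limit of 1 FPKM. Of all genes tested, 40.5% were called changed, 19.9% higher and 20.6% lower, and in 54.0% the values of the groups did not overlap. The 5 calls among the 8 members tested, and the 6 of 8 whose groups did not overlap, stand beside these shares, and with so few genes the counts say little by themselves. In bulk RNA, fewer cells of a type and less RNA per cell cannot be told apart.

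The glucocorticoid receptor rests in the cytoplasm in a complex with HSP90 and its co-chaperones. When bound by hormone it enters the nucleus, sits on palindromic DNA elements or on other factors, and raises genes such as *Tsc22d3*, *Fkbp5*, *Sgk1*, *Zbtb16* and *Per1*. FOXO factors are held in the cytoplasm when AKT or SGK kinases phosphorylate them downstream of PI3K and insulin receptor substrates, and when this signal is low they turn on genes of cell cycle arrest, stress resistance and insulin signalling, *Irs2* among them. In haematopoietic stem cells FOXO3 is known for keeping cells quiescent. *Txnip* stands where these inputs meet, since it is raised by FOXO factors, by glucocorticoids in some cells and by glucose through MondoA and MLX.

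**Figure D1:**
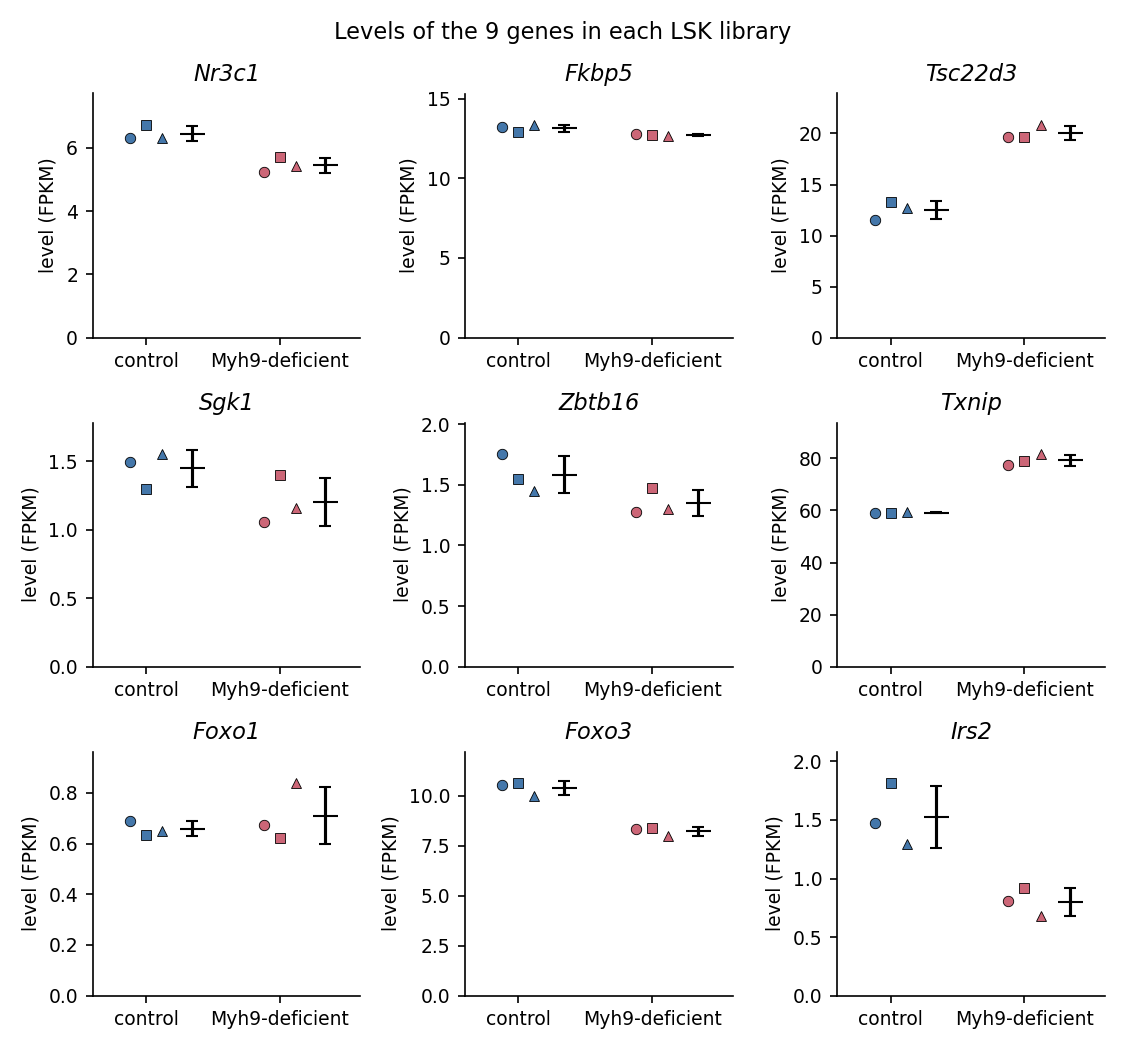
Transcript level (FPKM) of each of the 9 genes in each library, 3 control libraries in blue and 3 *Myh9*-deficient libraries in red, with the horizontal bar at the mean and the error bar at ± 1 SD; circle, square and triangle stand for replicates 1, 2 and 3. *Tsc22d3* and *Txnip* lie higher in every *Myh9*-deficient library, *Nr3c1*, *Foxo3* and *Irs2* lower, and *Sgk1*, *Zbtb16* and *Foxo1* overlap between groups.

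*Nr3c1* (ENSMUSG00000024431, chromosome 18, - strand) encodes the glucocorticoid receptor. Its transcript was at 6.31, 6.71 and 6.29 FPKM in the control libraries and at 5.23, 5.70 and 5.41 FPKM in the *Myh9*-deficient libraries. The groups did not overlap, and the mean fell by 15.4% (6.44 ± 0.235 against 5.45 ± 0.235 FPKM, SD, n = 3). The log2 fold change was -0.21 with an SE of 0.049 (adjusted p = 0.0154). The call was lost without control replicate 2, the highest control library, though the log2 fold change was still -0.18 (adjusted p = 0.0541). It was also lost when each library's trend with gene length was removed (log2 fold change of -0.14, adjusted p = 0.0584). *Nr3c2*, which encodes the related mineralocorticoid receptor, was at 0.0759 ± 0.0153 FPKM in control and at 0.0416 ± 0.0218 FPKM in *Myh9*-deficient LSKs, on at most 12 reads a library.

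*Fkbp5* (ENSMUSG00000024222, chr17:28399094-28517527, - strand) encodes FKBP51, a co-chaperone that holds the receptor in a state of low hormone affinity, and is itself raised by glucocorticoids. It was at 13.2, 12.9 and 13.3 FPKM in control and at 12.8, 12.7 and 12.7 FPKM in *Myh9*-deficient LSKs. The *Myh9*-deficient libraries all lay below the control libraries, but the difference was small and did not pass the test (log2 fold change of -0.042, 95% interval -0.12 to 0.034, adjusted p = 0.334). Its sign turned when the trend with gene length was removed (0.043, adjusted p = 0.352). *Fkbp4* encodes FKBP52, which takes the place of FKBP51 once hormone is bound, and was at 193 ± 0.174 and 188 ± 3.20 FPKM (adjusted p = 0.237). The log2 ratio of *Fkbp5* to *Fkbp4*, taken within each library, differed between groups by -0.0052 (exact permutation test, two-sided, p = 1.0).

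*Tsc22d3* (ENSMUSG00000031431, chrX:140539528-140600659, - strand) encodes GILZ, a leucine zipper protein that binds NF-kappaB and AP-1 and mediates anti-inflammatory effects of glucocorticoids. It was at 11.5, 13.3 and 12.7 FPKM in control and at 19.7, 19.7 and 20.8 FPKM in *Myh9*-deficient LSKs. Every *Myh9*-deficient library was above every control library. The mean was 60.1% higher (12.5 ± 0.888 against 20.0 ± 0.654 FPKM, SD, n = 3), with a log2 fold change of 0.64 (SE 0.055, adjusted p = 2.7e-04). In size this change was larger than that of 94.5% of all genes tested. It stayed between 0.59 and 0.70 in 18 alternative fits and passed in each of these.

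*Tsc22d4*, a TSC22 family member, went the opposite way, from 21.8 ± 0.844 to 17.8 ± 0.804 FPKM (log2 fold change of -0.28, adjusted p = 0.0036). Taken within each library, the ratio of *Tsc22d3* to *Tsc22d4* in FPKM, with nothing added, was 0.533, 0.584 and 0.602 in control and 1.12, 1.05 and 1.21 in *Myh9*-deficient LSKs. *Tsc22d4* was thus the more abundant of the pair in each control library and *Tsc22d3* in each *Myh9*-deficient library. The log2 ratios of FPKM + 1 differed by 0.92 without overlap. The exact permutation p of 0.1 is the smallest that 3 against 3 libraries allow (adjusted p = 0.4 over 4 pairs).

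*Sgk1* (ENSMUSG00000019970, chr10:21882184-21999903, + strand) encodes a serum and glucocorticoid induced kinase that phosphorylates FOXO factors as AKT does, so it belongs to both pathways. It was at 1.50, 1.30 and 1.55 FPKM in control and at 1.06, 1.40 and 1.16 FPKM in *Myh9*-deficient LSKs, on 97 to 146 reads a library. The groups overlapped, and the difference did not pass the test (log2 fold change of -0.15, 95% interval -0.37 to 0.062, adjusted p = 0.221). *Sgk3*, a member of the same kinase family, was at 4.18 ± 0.258 and 3.69 ± 0.0896 FPKM (adjusted p = 0.0854). The log2 ratio of *Sgk1* to *Sgk3* differed between groups by -0.0115 (exact permutation p = 1.0), and by -0.0942 with no pseudocount (exact permutation p = 0.7).

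*Zbtb16* (ENSMUSG00000066687, chr9:48654297-48836222, - strand) encodes PLZF, a zinc finger repressor found in stem cells and innate-like lymphocytes and raised by glucocorticoids in many cell types. It was at 1.75, 1.55 and 1.45 FPKM in control and at 1.27, 1.47 and 1.30 FPKM in *Myh9*-deficient LSKs, on 126 to 184 reads a library. Only *Myh9*-deficient replicate 2 reached into the control range, and the difference did not pass (log2 fold change of -0.14, 95% interval -0.32 to 0.053, adjusted p = 0.217). The 12 markers of T, NK and innate lymphoid cells summed to 352.4 to 362.9 FPKM in control and to 285 to 291.5 FPKM in *Myh9*-deficient LSKs. Nearly all of this sum was *Nkg7*, a granule protein gene, at 353 ± 4.87 and 280 ± 2.97 FPKM. The other 11 markers summed to 2.603 to 3.959 FPKM in control and to 8.799 to 9.808 FPKM in *Myh9*-deficient LSKs, and 7 of the 12 lay higher in every *Myh9*-deficient library, 1 lower and 4 overlapped. *Cd3e* was at 0 in every control library, *Cd3d* was at 0.141 ± 0.123 and 1.45 ± 0.170 FPKM, and *Il2rb* at 0.312 ± 0.0987 and 2.23 ± 0.183 FPKM. Only *Nkg7* and *Il2rb* averaged 1 FPKM or more and were tested, and the part of such cells in the *Zbtb16* level was not tested.

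Stretches before the annotated starts of the 3 members found to carry hormone or FOXO motifs are shown. Of these members, *Txnip* and *Tsc22d3* rose and *Sgk1* did not pass the test. Promoter windows, from 250 bases before to 50 bases after each start, came from RefSeq (GRCm38.p6, the mm10 assembly that the submitters' processing notes name). Windows were found for 7 of the 9 members, 14 in all. The set of windows used here held none for *Nr3c1* and *Zbtb16*, so their promoters were not searched. Positions count back from -1, the base before the start, and both strands were searched. Capitals in *Txnip* (chr3:96557707-96557956, + strand) mark a FOXO motif, GTAAACA, at -121 to -115 and a carbohydrate response element, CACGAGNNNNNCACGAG, at -85 to -69. Capitals in *Sgk1* (chr10:21993640-21993889, + strand) mark a whole glucocorticoid response element, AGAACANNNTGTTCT, at -189 to -175 from a start inside the gene. Capitals in *Tsc22d3* (chrX:140600660-140600772, - strand, from -250 to -138) mark a single arm of that element, TGTTCT, at -185 to -180, and the stretch ends at the base next to the annotated 5′ end of the gene.
Txnip: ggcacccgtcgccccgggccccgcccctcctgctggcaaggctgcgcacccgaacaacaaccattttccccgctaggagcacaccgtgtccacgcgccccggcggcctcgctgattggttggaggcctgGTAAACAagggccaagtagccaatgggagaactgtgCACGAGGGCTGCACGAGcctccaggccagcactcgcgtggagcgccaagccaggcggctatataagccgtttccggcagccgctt
Sgk1: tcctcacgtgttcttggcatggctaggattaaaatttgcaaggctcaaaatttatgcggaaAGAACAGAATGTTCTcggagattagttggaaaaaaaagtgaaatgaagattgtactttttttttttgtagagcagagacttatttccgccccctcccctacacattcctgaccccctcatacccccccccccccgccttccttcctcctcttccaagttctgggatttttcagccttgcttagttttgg
Tsc22d3: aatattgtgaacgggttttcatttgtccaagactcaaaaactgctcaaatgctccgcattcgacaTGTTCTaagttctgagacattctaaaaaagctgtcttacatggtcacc

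The whole glucocorticoid response element stood in 3 of 32851 mouse promoter windows (0.00913%), and among the members in that of *Sgk1* alone, which did not pass the test. Its single arm TGTTCT, which the whole element contains on both strands, was common, with 19.0% of all windows and 4 of the 14 member windows, those of *Sgk1* (3) and *Tsc22d3* (1). The FOXO motif stood in 3.65% of all windows and, among the members, in that of *Txnip*. The letters of the carbohydrate response element were taken as known for *Txnip*, whose window was the 1 of 32851 that held them. The E-box CACGTG, in 7.15% of all windows, stood in 1 window each of *Fkbp5*, *Irs2* and *Sgk1*, and in *Sgk1* it overlapped a TGTTCT. In the *Sgk1* stretch these 2 motifs lie near its first bases, in lower case. These matches describe letters in short windows. Hormone response elements farther from the start, within introns for example, lie outside them.

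*Txnip* (ENSMUSG00000038393, chr3:96557957-96561883, + strand) encodes an alpha-arrestin that binds and inhibits thioredoxin and lowers glucose uptake, and its loss is known to disturb stem cell quiescence. It was the most abundant member, at 58.9, 59.0 and 59.3 FPKM in control and at 77.3, 78.8 and 81.6 FPKM in *Myh9*-deficient LSKs. The control libraries lay close together, and every *Myh9*-deficient library was higher. The mean was 34.1% higher (59.1 ± 0.211 against 79.2 ± 2.15 FPKM, SD, n = 3), with a log2 fold change of 0.42 (SE 0.028, adjusted p = 9.4e-05). An antisense gene, *Gm15441*, shares 606 of its 3123 exon bases (19.4%), and reads of overlapping genes cannot be told apart without strand. *Gm15441* was at 0.249 to 0.654 FPKM, but how reads on the shared bases were counted was not given in the sources used here.

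*Arrdc4*, an alpha-arrestin also driven by MondoA, was at 3.42 ± 0.156 and 4.31 ± 0.380 FPKM (log2 fold change of 0.26, adjusted p = 0.0213). That call was lost without control replicate 1 or 3 or *Myh9*-deficient replicate 1 or 2 (adjusted p = 0.0549 to 0.0665). Within libraries, the log2 ratio of *Txnip* to *Arrdc4* was 3.76 ± 0.0557 in control and 3.92 ± 0.133 in *Myh9*-deficient LSKs, with overlap (exact permutation p = 0.2, adjusted p = 0.4). The difference of 0.15 was 0.081 without *Myh9*-deficient replicate 3 and 0.093 with no pseudocount.

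*Foxo3* (ENSMUSG00000048756, chr10:42181841-42276755, - strand) encodes the FOXO factor best known from haematopoietic stem cells. It was at 10.5, 10.6 and 9.98 FPKM in control and at 8.33, 8.37 and 7.98 FPKM in *Myh9*-deficient LSKs. Every *Myh9*-deficient library was below every control library. The mean fell by 20.7% (10.4 ± 0.344 against 8.23 ± 0.217 FPKM, SD, n = 3), with a log2 fold change of -0.30 (SE 0.041, adjusted p = 0.0018), and it passed in 18 of 18 alternative fits, at -0.34 to -0.23.

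*Foxo1* (ENSMUSG00000044167, chr3:52268336-52353221, + strand) encodes the FOXO factor prominent in lymphocytes and liver. It was at 0.691, 0.635 and 0.649 FPKM in control and at 0.672, 0.620 and 0.837 FPKM in *Myh9*-deficient LSKs, on 97 to 135 reads a library. The groups overlapped, with *Myh9*-deficient replicate 3 the highest and *Myh9*-deficient replicate 2 the lowest of the 6 libraries. Its mean stayed below the limit of 1 FPKM, and in a fit with no such limit its log2 fold change was 0.042 (adjusted p = 0.74).

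*Foxo4*, which was not a member, was the most abundant FOXO transcript in each library. It fell from 12.3 ± 0.693 to 10.1 ± 0.365 FPKM (log2 fold change of -0.26, adjusted p = 0.00741). *Foxo6* was at 0 in 5 libraries and at 0.0192 FPKM in control replicate 1. The 4 FOXO transcripts summed to 23.3 ± 0.545 FPKM in control and to 19.0 ± 0.350 FPKM in *Myh9*-deficient LSKs, without overlap. *Foxo3* made up 44.5% ± 2.04 of the sum in control and 43.2% ± 1.49 in *Myh9*-deficient LSKs (SD, n = 3), and these shares overlapped.

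*Irs2* (ENSMUSG00000038894, chr8:10984681-11008458, - strand) encodes insulin receptor substrate 2, an adaptor between insulin or cytokine receptors and PI3K and a known FOXO target. It was at 1.47, 1.81 and 1.29 FPKM in control and at 0.811, 0.919 and 0.680 FPKM in *Myh9*-deficient LSKs. The groups did not overlap, and the mean fell by 47.4% (1.53 ± 0.264 against 0.803 ± 0.120 FPKM, SD, n = 3), the largest relative fall among the members. These levels rest on 157 to 202 reads a library in control and on 80 to 106 in *Myh9*-deficient LSKs. At this low level the log2 fold change of FPKM + 1 was -0.48 (SE 0.10, adjusted p = 0.0113), while voom on the reads recovered from the FPKM values gave -0.89. With voom this change was larger in size than that of *Tsc22d3* (0.70), while on the FPKM + 1 scale it was smaller. *Irs1* had 1 read in control replicate 1 and none in the other libraries.

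**Figure D2:**
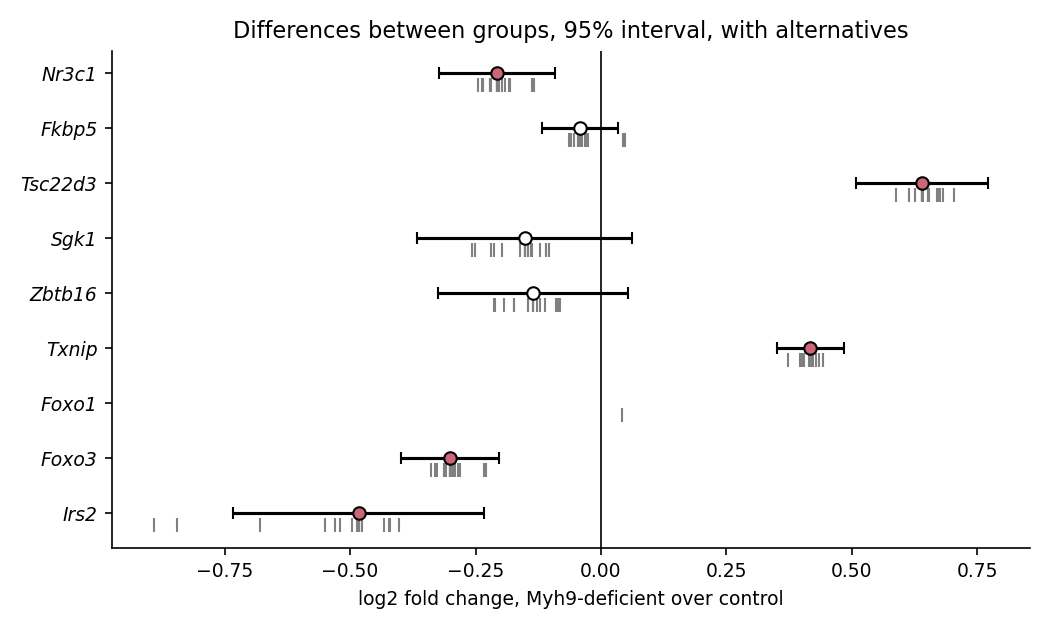
Log2 fold change of FPKM + 1 (*Myh9*-deficient minus control) of each member, with the bar giving the 95% interval from limma and grey ticks the values under the alternative fits; filled points have an adjusted p under 0.05. *Tsc22d3* (0.64) and *Txnip* (0.42) lie above 0, *Nr3c1* (-0.21), *Foxo3* (-0.30) and *Irs2* (-0.48) below, and the intervals of *Fkbp5*, *Sgk1* and *Zbtb16* cross 0.

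In level, the order of the members was nearly fixed. *Txnip* took place 1, *Foxo3* place 4 and *Nr3c1* place 5 of 9 in each of the 6 libraries. *Fkbp5* and *Tsc22d3*, whose control values overlapped, shared the places between. *Tsc22d3* was above *Fkbp5* in 1 of 3 control libraries and in 3 of 3 *Myh9*-deficient libraries. Below *Nr3c1*, the control ranges of *Zbtb16*, *Sgk1* and *Irs2* overlapped, so that no order among them held. In *Myh9*-deficient LSKs *Zbtb16* and *Sgk1* overlapped, as did *Irs2* and *Foxo1*, and *Irs2* was below both *Zbtb16* and *Sgk1* in 3 of 3 *Myh9*-deficient libraries and in 2 of 3 control libraries.

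**Figure D3:**
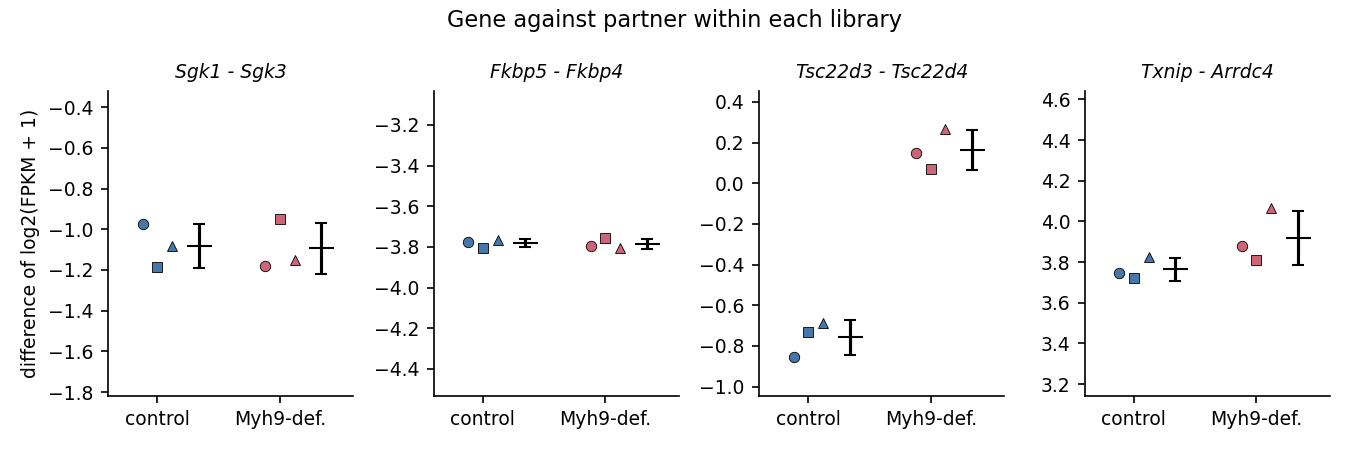
Log2 ratio of FPKM + 1 between a member and its paralog or partner, taken within each library, for the 4 pairs in which both genes reached 1 FPKM; control in blue, *Myh9*-deficient in red, bars mean ± SD, symbols replicates 1 to 3, and each panel spans the same height. The ratio of *Tsc22d3* to *Tsc22d4* passes from below 0 to above 0 (-0.76 to 0.16), and the groups of the other pairs overlap.

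The wider glucocorticoid and FOXO programmes were described by 5 lists of 101 further genes, of which 88 were abundant enough to be tested. The calls in each list stand beside 19.9% of all genes tested called higher and 20.6% called lower. List medians were taken without removing the trend with gene length. Of 20 glucocorticoid receptor target genes, 14 were tested, 3 rose, 9 fell and 2 did not pass, with a median log2 fold change of -0.31, beside -0.0096 over all genes tested. *Ddit4* (REDD1), an inhibitor of mTORC1, rose from 16.9 ± 1.28 to 33.7 ± 2.18 FPKM (log2 fold change of 0.95, adjusted p = 1.1e-04). *Mt1*, a metallothionein, rose from 120 ± 3.80 to 230 ± 7.26 FPKM (0.93, adjusted p = 1.0e-05). *Per1*, a clock gene, rose from 4.70 ± 0.0374 to 7.20 ± 0.202 FPKM (0.53, adjusted p = 1.8e-04). These 3 rose, as *Tsc22d3* did.

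The largest falls in that list were those of *Zfp36*, *Rgs2* and *Dusp1*. *Zfp36*, which encodes an mRNA decay factor, fell from 63.2 ± 0.650 to 27.1 ± 0.899 FPKM (log2 fold change of -1.19, adjusted p = 3.5e-06). *Rgs2*, a regulator of G protein signalling, fell from 37.1 ± 0.297 to 18.8 ± 0.774 FPKM (-0.95, adjusted p = 1.1e-05), and *Dusp1*, a MAP kinase phosphatase, from 73.3 ± 1.21 to 38.0 ± 0.957 FPKM (-0.93, adjusted p = 5.6e-06). *Zfp36* and *Dusp1* are also immediate early genes. A list of 10 immediate early and heat shock genes, which respond to handling of cells, summed to 659.3 to 675.7 FPKM in control and to 330.2 to 352.1 FPKM in *Myh9*-deficient LSKs, with 9 lower and 0 higher, and its part in these falls was not tested. None of the 23 promoter windows found for 19 genes of the target list held the whole response element.

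Among 16 tested chaperones, cofactors and enzymes of the receptor, 1 rose, 4 fell and 11 did not pass (median -0.14). *Dnaja1*, an HSP40 co-chaperone, rose from 32.1 ± 0.440 to 37.3 ± 0.158 FPKM (0.21, adjusted p = 0.00116). The HSP40 gene *Dnajb1* fell from 47.9 ± 0.984 to 35.5 ± 0.813 FPKM (-0.42, adjusted p = 1.3e-04), *Hspa8*, which encodes HSC70, from 597 ± 3.76 to 488 ± 12.1 FPKM (-0.29, adjusted p = 2.7e-04), and the corepressor *Ncor1* from 10.3 ± 0.166 to 8.45 ± 0.292 FPKM (-0.25, adjusted p = 0.00298). With the trend with gene length removed, the value of *Ncor1* was -0.16 (adjusted p = 0.0293). In the list of immediate early and heat shock genes, *Hspa1a* (-1.11) and *Hspa1b* (-2.40) fell and *Hsph1* (-0.10) did not pass. The part of cell handling in the falls of the chaperones was not tested.

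Of 30 FOXO target genes, 25 were tested, 2 rose, 13 fell and 10 did not pass (median -0.16). Those that rose were *Sod2*, mitochondrial superoxide dismutase (11.6 ± 0.468 to 14.6 ± 0.420 FPKM, log2 fold change 0.31, adjusted p = 0.00184), and *Ccnd2*, cyclin D2, a gene that FOXO factors repress (12.7 ± 0.205 to 14.4 ± 0.622 FPKM, 0.17, adjusted p = 0.0162). The adjusted p of *Ccnd2* was 0.0519 without control replicate 3. Among the genes that fell were *Cdkn1a*, the cell cycle inhibitor p21, which the glucocorticoid list also holds (13.1 ± 1.33 to 8.64 ± 0.690 FPKM, -0.55, adjusted p = 0.00265) and *Ccng2*, the inhibitory cyclin G2 (10.4 ± 0.607 to 6.83 ± 0.321 FPKM, -0.54, adjusted p = 5.5e-04). *Txnip*, counted with the members, thus rose while 13 of the 25 tested genes of this list, and *Irs2*, fell. The FOXO motif stood in 3 of 30 windows of the list, those of *Bbc3*, *Bcl2l11* and *Sesn1*.

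Of 24 tested genes of the PI3K and AKT arm and other regulators of FOXO, 1 rose, 6 fell and 17 did not pass (median -0.13). *Pik3cd*, the leukocyte catalytic subunit p110delta, fell from 30.0 ± 0.201 to 19.3 ± 0.334 FPKM (-0.61, adjusted p = 2.4e-05). *Inpp5d*, the phosphatase SHIP1, fell from 19.6 ± 0.521 to 16.0 ± 0.406 FPKM (-0.27, adjusted p = 0.00157). *Akt1*, at 68.2 ± 0.540 and 72.3 ± 0.786 FPKM, was the gene called higher (0.084, adjusted p = 0.0288), but the call was lost in 9 of 18 alternative fits, with any control library or *Myh9*-deficient replicate 1 or 2 left out among them (adjusted p = 0.0637 to 0.0822 for these 5).

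Of 13 tested thioredoxin genes and partners of TXNIP, 5 rose, 1 fell and 7 did not pass (median 0.016). *Slc2a3*, the glucose transporter GLUT3, rose from 4.56 ± 0.114 to 6.39 ± 0.398 FPKM (0.41, adjusted p = 0.00156). Thioredoxin itself, *Txn1*, named here after its values were seen, was at 355 ± 8.19 and 405 ± 8.61 FPKM (0.19, adjusted p = 0.00234). The alpha-arrestin *Arrdc1* was at 25.1 ± 1.17 and 29.8 ± 2.10 FPKM (0.24, adjusted p = 0.0189), a call lost without control replicate 2 or *Myh9*-deficient replicate 1 or 3 (adjusted p = 0.0533 to 0.0593). *Arrdc3* was at 3.35 ± 0.235 and 2.60 ± 0.157 FPKM (-0.27, adjusted p = 0.0167), a call lost without replicate 1 of either group (adjusted p = 0.0554 for control and 0.0524 for *Myh9*-deficient LSKs).

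**Figure D4:**
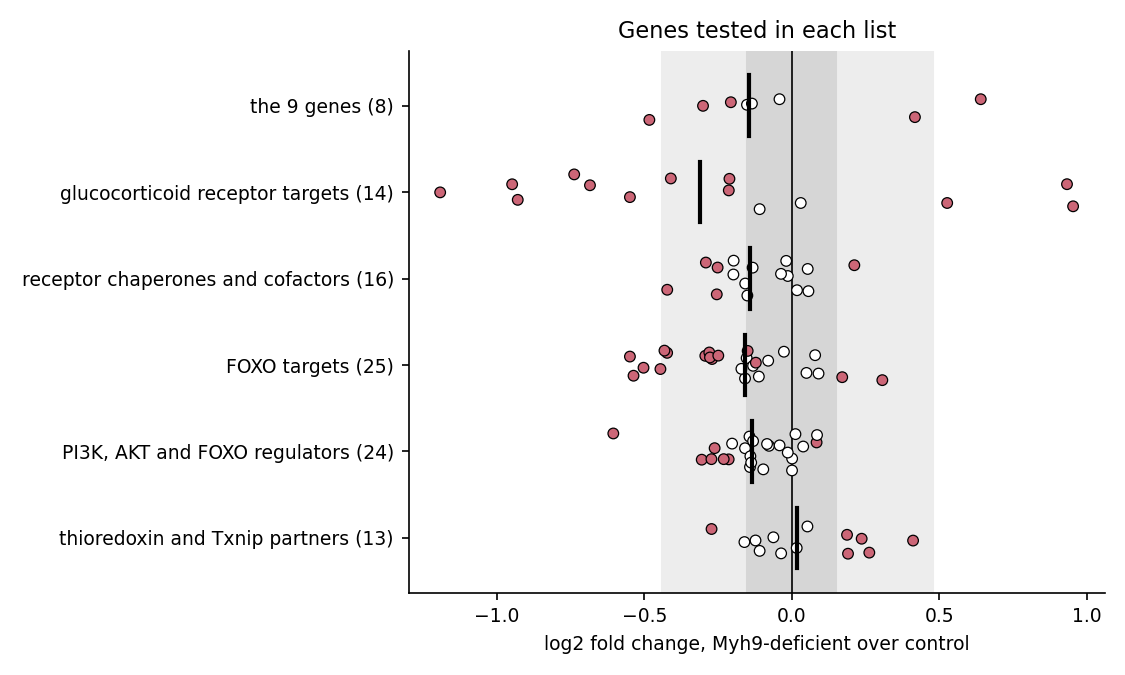
Log2 fold change of FPKM + 1 (*Myh9*-deficient minus control) of each tested gene in the 5 lists and of the members, 1 point a gene and a black bar at the median, with shading from the 25th to the 75th and from the 5th to the 95th percentile of all genes tested. The glucocorticoid receptor target genes spread widely, from -1.19 for *Zfp36* to 0.95 for *Ddit4*, with a median of -0.31, while the median of the thioredoxin list was 0.016.

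Markers of cell types within or beside the LSK gate moved as well. The 7 erythroid markers summed to 442.8 to 447.6 FPKM in control and to 781.5 to 805.4 FPKM in *Myh9*-deficient LSKs, with 7 of 7 higher. The 5 megakaryocyte markers summed to 56.66 to 60.03 and 123.1 to 128.8 FPKM, with 3 of 3 tested higher and *Gp1bb* at 0 in all libraries. The 8 myeloid markers summed to 6633 to 6687 and 3457 to 3523 FPKM, with 5 of 6 tested lower. The 5 mast cell and basophil markers summed to 89.83 to 101.9 and 146.6 to 156.8 FPKM, with 4 of 5 higher, and the 6 B and plasma cell markers to 98.68 to 99.26 and 121.2 to 127.9 FPKM, with 3 of 4 tested higher and 1 lower. The 8 LSK markers summed to 342.5 to 348 and 348.4 to 378.4 FPKM, with 3 higher and 1 lower. The myeloid sum was mostly *Elane* and *Mpo*, and the erythroid sum mostly *Car1*. The sums of all these lists separated the groups, as *Tsc22d3*, *Txnip*, *Foxo3* and *Irs2* did, but that of the LSK markers only narrowly. The sum of the T, NK and innate lymphoid markers other than *Nkg7* separated them as well. The part of a shift in cell types in the members' changes was not tested.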

How the data were processed

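RNA-seq libraries of 3 control and 3 *Myh9*-deficient LSK sets were compared. Expression was deposited as FPKM, computed by the authors for 54532 genes with their lengths. Per the labels, libraries were made with a TruSeq RNA kit, and the submitters' processing notes name HISAT2 2.0.5 and mm10. The counting program and the annotation were not given in the sources used here. FPKM times length was a whole multiple of 1 step in each library (tolerance 0.05), which gave the reads behind each value (17571544 to 19894562 a library). Intervals from reads would cover counting error only, and replicates differed by more than sampling noise. The main test was limma 3.58.1 (R 4.3.3, lmFit and eBayes with a trend, two-sided) on log2(FPKM + 1) for 11552 genes that averaged 1 FPKM or more, with Benjamini-Hochberg adjustment, and it was tested on simulated data. Ratios within libraries were compared by exact permutation. Gene positions followed GENCODE M21, promoter windows RefSeq.

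The members and the lists were chosen with earlier results of these data known. Named were all members, *Myh9*, the paralog or partner of each pair and at most 3 called genes of a list in each direction, with exceptions said, and 2 such genes are not reported here. Alternatives were a pseudocount of 0.1, no filter, a mean of at least 5 FPKM, median of ratios, quantile and TPM scaling, no moderation, moderation without trend, a replicate block, each library left out, voom on recovered reads, a 2-fold limit with unadjusted p, removal of the trend with gene length and, chosen after seeing the data, with GC content and length. Python 3.11.15, pandas 2.3.3, numpy 2.4.6, data.table (version 1.17.8) and matplotlib 3.10.9 were used.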

Additional observations from a re-analysis of the deposited data

How the results depend on the processing

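Over 20 other settings, 642 of 679 values kept their direction and their side of the threshold. *Tsc22d3*, *Txnip*, *Foxo3* and *Irs2* passed in every fit that tested them, and *Sgk1* and *Zbtb16* in none. *Nr3c1* lost its call without control replicate 2 (-0.18), after removal of the length trend (-0.14) and after removal of GC and length trends together (-0.13, adjusted p = 0.0616), and *Fkbp5* turned to 0.043 and 0.047 under the latter settings, the causes of which were not tested. A 2-fold limit with an unadjusted p under 0.05 left 165 genes higher and 81 lower, and 0 members passed in either direction. In the other settings 1724 to 2725 genes were higher and 1740 to 2584 lower. Leaving out 1 library at a time, the log2 ratio difference of *Sgk1* to *Sgk3* ranged from -0.0834 to 0.0428 that of *Fkbp5* to *Fkbp4* from -0.0198 to 0.0037 and that of *Txnip* to *Arrdc4* from 0.0806 to 0.2085. Replicate numbers did not pair the libraries. Deviations of genes from their group means correlated at -0.0262 to -0.00459 between same-numbered control and *Myh9*-deficient libraries. With a replicate block 2063 genes were higher and 2044 lower, 2 and 3 members among them. Depth limits *Foxo1*, *Irs2*, *Sgk1* and *Zbtb16*, at 80 to 202 reads a library.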

Other observations

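In the 5 lists, 13 genes lay under the limit of 1 FPKM on average and had no test. Those named here did not overlap between groups, and the others did. Among all genes tested, 54.0% did not overlap. *Il1r2*, the decoy receptor for interleukin 1 and a glucocorticoid target, was at 0.316, 0.208 and 0.273 FPKM in control (7 to 12 reads) and at 1.71, 0.891 and 1.55 FPKM in *Myh9*-deficient LSKs (31 to 61 reads). *Il7r*, the interleukin 7 receptor, which both the glucocorticoid and the FOXO list hold, was at 0.669, 0.669 and 0.793 FPKM in control and at 1.21, 1.12 and 1.04 FPKM in *Myh9*-deficient LSKs. *Bcl6*, a transcriptional repressor in both lists, was at 0.908, 0.788 and 0.809 FPKM in control and at 0.534, 0.401 and 0.425 FPKM in *Myh9*-deficient LSKs. *Fbxo32*, in the FOXO list, was at 1.07, 0.927 and 1.01 FPKM in control and at 0.704, 0.763 and 0.901 FPKM in *Myh9*-deficient LSKs. *Mt2*, the neighbour and close paralog of *Mt1*, had 2, 0 and 0 reads in control and 13, 21 and 5 reads in *Myh9*-deficient LSKs, and how reads shared by paralogs were counted was not given in the sources used here. These genes were named after their values were seen.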
